A study of Mus musculus with 18 samples.

Results

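The 8 genes of hepatic glucose sensing, glycolysis and fructose use, namely Slc2a2, Gckr, Pfkl, Pfkfb1, Pklr, Mlxipl, Khk and Tkfc, were followed through nuclear RNA of fed and fasted mouse liver. They were taken by symbol from the deposited count table, where each of the 8 has 1 of the 20105 rows. All 8 passed the filter on low counts in every comparison.

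The livers came from 6 HEP-INTACT mice, all female. In this line beads capture tagged nuclei of hepatocytes out of a whole-liver preparation (immunoprecipitation, IP). Of these, 3 mice were fed ad libitum and 3 went without food for 16 h, beginning when their active phase began (zeitgeber time 12), and all livers were taken at 1 clock time. Each mouse gave a fresh IP library, a library of the supernatant left after that IP, and an IP library from frozen liver, which makes 6 groups of 3 libraries. The tag, the promoter that drives it, the strain background and the age are not given in the sources used here. Every group carries the HEP-INTACT allele, so its own effect has no comparison. Libraries are named A, B and C after the columns of the count table, and the letters stand in no label. The serial numbers in the labels follow each other without a gap, except that of a single frozen fed library, which lies far outside the run. The letter of that library is not given. Its part in the frozen fed values, in the fasting test in frozen IP and in the comparison of frozen with fresh IP was not tested. Total counts were 25675086 to 54434263 in fresh IP, 28315372 to 37188834 in supernatant and 13828945 to 49027343 in frozen IP, with the lowest total in fed library B of frozen IP. All 10 hepatocyte markers checked, Alb and Cps1 among them, were higher in IP than in supernatant by edgeR's quasi-likelihood test (median log2 difference 4.54), and all 8 endothelial, 7 Kupffer cell, 7 stellate cell and 7 lymphocyte markers were lower. Of 5 cholangiocyte markers 3 were tested, and 2 of them, Sox9 (3.74) and Spp1 (1.37), were higher in IP while Krt7 was lower.

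Glucose enters the hepatocyte through GLUT2, the product of Slc2a2, and is then phosphorylated, a step that the regulatory protein encoded by Gckr restrains from within the nucleus when glucose is low and releases when glucose or fructose arrives. Phosphofructokinase (Pfkl), set by the bifunctional enzyme Pfkfb1, and liver pyruvate kinase (Pklr) are controlled steps of glycolysis, and ketohexokinase (Khk) and triokinase (Tkfc) bring fructose into the same pathway. Mlxipl encodes ChREBP, a transcription factor that is activated by sugar phosphates and binds carbohydrate response elements, of which the one in the liver promoter of Pklr is the classic example.

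After the fast, Mlxipl and Pklr fell in hepatocyte nuclei of both fresh and frozen liver, Mlxipl to 595 ± 29.6 from 1686 ± 136 CPM (counts scaled to a common library size; SD, n = 3) and Pklr to 37.5 ± 18.1 from 125 ± 32.96 CPM in fresh IP. Tkfc went the other way and rose in frozen IP. In fresh IP, 0 of the 8 genes rose and 2 fell at a Benjamini-Hochberg adjusted p under 0.05 (edgeR's quasi-likelihood test), where 25.1% of all 12548 genes tested changed, 12.4% rising and 12.6% falling. In frozen IP, 1 rose and 2 fell, where 22.6% of 12926 genes changed, 11% rising and 11.6% falling. Counts this small beside that background are no result about the set as a whole. The median log2 difference of the 8 genes was -0.52 in fresh and -0.48 in frozen IP beside 0.01 over all genes in each. The fresh and frozen libraries came from the same mice, so these are not separate sets of animals. Markers of other cell types differed in part between fed and fasted mice: the summed level of 8 endothelial markers was 60.6 to 122 CPM in fed and 32.5 to 75.1 CPM in fasted fresh IP, with none of the markers at 0 and none of the 8 passing the test. Outside that list Col3a1, a stellate cell marker, fell by 1.77 in fresh IP (adjusted p = 0.00969, edgeR). Cd247, a lymphocyte marker, rose there by 2.47 (adjusted p = 0.00587, edgeR), and both were named after their values were seen. The other 5 lymphocyte markers tested there did not pass and had negative estimates, and the list median was -0.66. In supernatant Cd247 was at 0.002 (adjusted p = 0.995, edgeR). In frozen IP the summed endothelial level was 175 to 251 CPM in fed and 103 to 157 CPM in fasted libraries, and 3 of the 8 endothelial markers fell while 1, Lyve1, rose. Of the stellate cell markers 4 of 7 fell there, and of 6 lymphocyte markers tested 1 rose and 1 fell. The summed level of the 10 hepatocyte markers was 11413 to 16835 CPM in fed and 16288 to 23588 CPM in fasted fresh IP, where 2 rose and 1 fell. Their part in the values below was not tested. The SE beside each log2 difference is that of a difference of group means over 3 libraries each, except that the comparisons of IP with supernatant and of frozen with fresh IP average the fed and the fasted difference. In bulk nuclei, fewer cells of a type and less RNA per cell cannot be told apart.

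**Figure D1:**
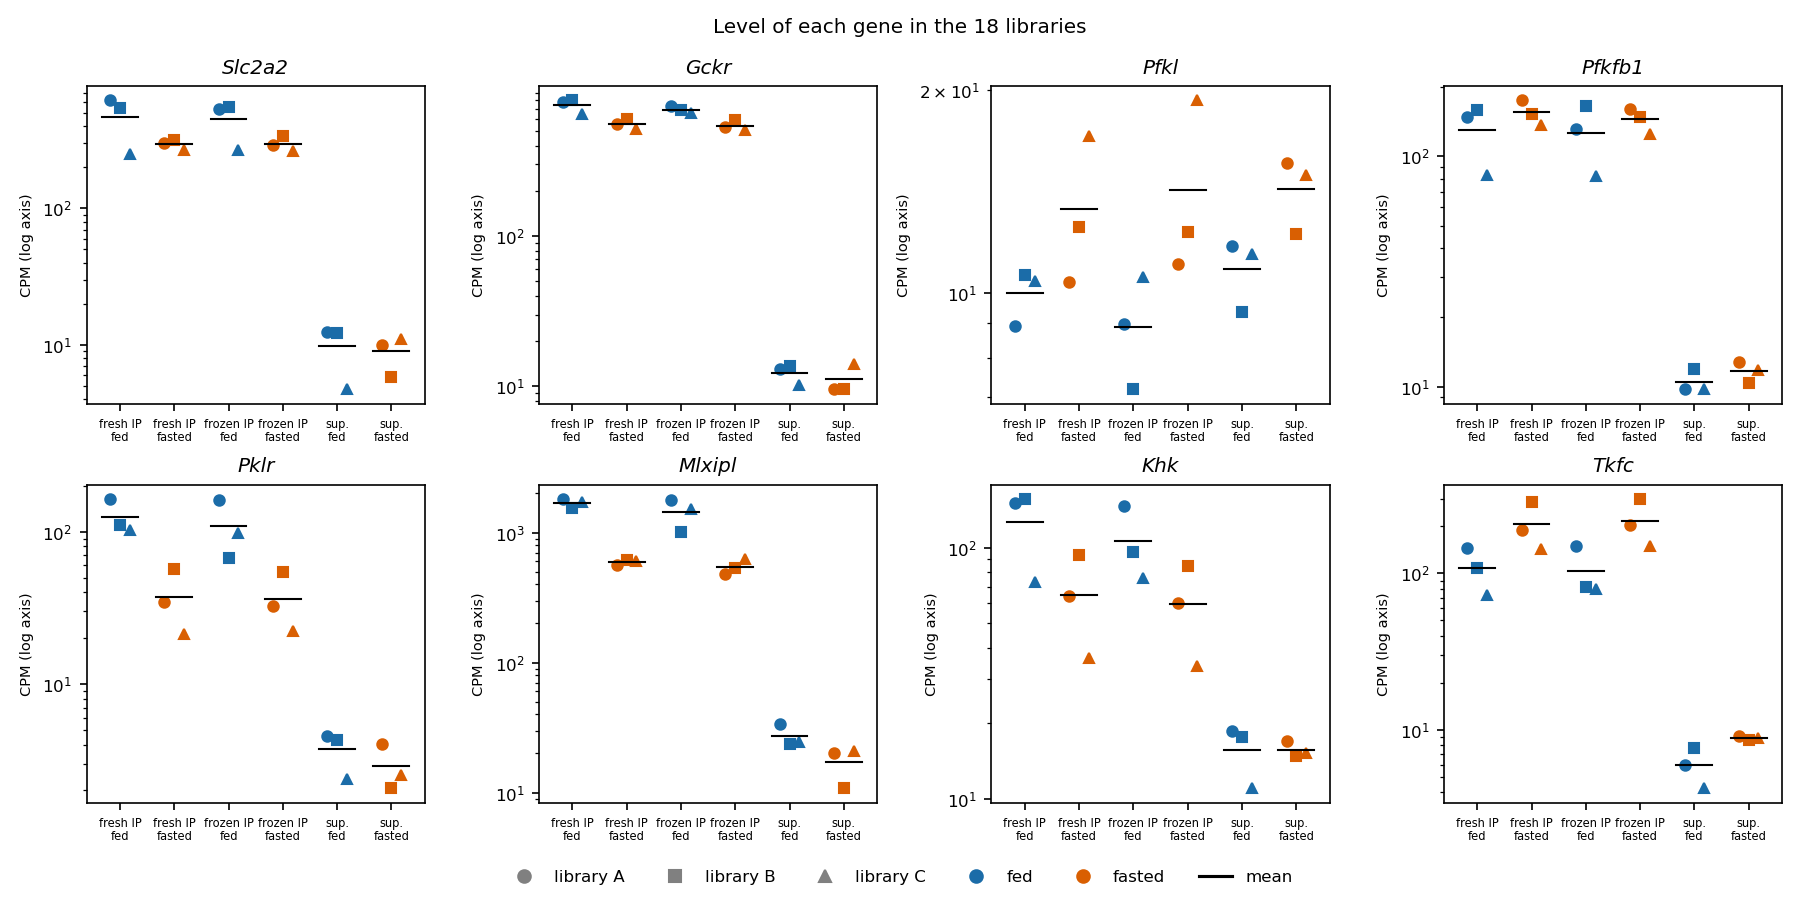
Level of each of the 8 genes in CPM (log axis) in each of the 18 libraries, by group; symbols are libraries A, B and C, blue is fed, orange is fasted, and bars are means of 3. Mlxipl and Pklr are lower in every fasted IP library than in every fed IP library, and 7 of the 8 genes lie far lower in supernatant (sup.) than in IP, Pfkl being the exception.

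Per kilobase of the transcribed region, introns included, Mlxipl was the most abundant of the 8 genes in fresh IP of fed mice, at 53.5 ± 4.31 CPM per kb (SD, n = 3), rank 46 of 20105 genes. Gckr followed at 25.04 ± 2.64 and rank 162, and their libraries did not overlap. Slc2a2 at 15.4 ± 6.33, Khk at 13.0 ± 4.77, Pklr at 11.97 ± 3.15 and Tkfc at 8.99 ± 3.03 CPM per kb came next, and the libraries of each of these overlapped those of the next. Pfkfb1 at 2.41 ± 0.764 and Pfkl at 0.437 ± 0.0398 CPM per kb stood last and apart from the others and from each other. In fasted mice Mlxipl at 18.9 ± 0.939 and Gckr at 18.8 ± 1.46 again came first, now with Tkfc next at 17.1 ± 5.98 CPM per kb. These did not differ beyond their spread. Below them came Slc2a2 at 9.68 ± 0.821, Khk at 6.69 ± 2.96, Pklr at 3.59 ± 1.73 and Pfkfb1 at 2.87 ± 0.348 CPM per kb, of which Slc2a2 overlapped Khk, Khk overlapped Pklr and Pklr overlapped Pfkfb1. Pfkl was again last, at 0.583 ± 0.150 CPM per kb.

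Slc2a2 (chr3:28697903-28728360, plus strand, mm10) encodes the low-affinity glucose transporter of the hepatocyte membrane. Its level in fresh IP was 615, 539 and 250 CPM in fed libraries A, B and C and 301, 316 and 267 CPM in the fasted ones. The frozen IP libraries were at 534, 547 and 268 CPM in fed and 292, 337 and 262 CPM in fasted libraries. Fed library C was low in both preparations and lay among the fasted libraries, so the groups overlapped, whereas fed A and B lay above all fasted ones. In fresh IP the same library had the lowest summed level of the 10 hepatocyte markers (11413 CPM, beside 16835 and 16492 in fed A and B) and the highest of the endothelial ones (122 CPM, beside 60.6 and 69.1). In frozen IP its hepatocyte marker level was again the lowest (11969 CPM, beside 14978 and 16063), but its endothelial level of 180 CPM lay between the 175 of A and the 251 of B. The part of these levels was not tested. The log2 difference was -0.64 ± 0.41 in fresh IP (adjusted p = 0.145, edgeR) and -0.60 ± 0.35 in frozen IP (adjusted p = 0.138). The call depended on fed library C. Without it the log2 difference was -0.95 in fresh IP (adjusted p = 0.00466, edgeR) and -0.87 in frozen IP (adjusted p = 0.0113). Since fed C is the library that made the groups overlap, these values do not show that Slc2a2 fell. In the GENCODE M21 annotation 1700112D23Rik overlaps Slc2a2 on the opposite strand over 25694 bases, and whether counting used strand is not given in the sources used here.

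Gckr (chr5:31297581-31327302, plus strand), the nuclear regulator of glucose phosphorylation, varied least between mice of the 8 genes in both feeding states. Its level was 778, 800 and 654 CPM in fed and 561, 600 and 513 CPM in fasted libraries of fresh IP, and 735, 690 and 657 CPM against 534, 594 and 505 CPM in frozen IP. All fasted libraries lay below all fed ones in both preparations. The log2 difference was small, -0.39 ± 0.11 in fresh IP (adjusted p = 0.0660, edgeR) and -0.35 ± 0.08 in frozen IP (adjusted p = 0.0929), and missed the threshold. It passed under other settings, at an adjusted p of 0.0135 (fresh) and 0.0300 (frozen) with DESeq2, 0.0477 in fresh IP with one fit over all 6 groups and 0.0405 in fresh IP without fed library C.

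Pfkl (chr10:77986949-78009796, minus strand), the liver subunit of phosphofructokinase, was at 8.93, 10.6 and 10.4 CPM in fed and 10.4, 12.5 and 17.1 CPM in fasted libraries of fresh IP. The frozen IP libraries held 8.97, 7.18 and 10.6 CPM in fed and 11.04, 12.3 and 19.3 CPM in fasted libraries. Fasted library C was the highest in both preparations, and fed and fasted libraries overlapped in fresh but not in frozen IP. The log2 difference was 0.43 ± 0.22 in fresh IP (adjusted p = 0.145, edgeR) and 0.66 ± 0.29 in frozen IP (adjusted p = 0.0860), which passed only with one fit over all 6 groups (adjusted p = 0.0326). Pfkfb1 (chrX:150589921-150643878, plus strand) makes and degrades fructose 2,6-bisphosphate, the activator of phosphofructokinase. It was at 149, 158 and 82.6 CPM in fed and 175, 153 and 137 CPM in fasted libraries of fresh IP, with fed library C again the lowest. In frozen IP it was at 131, 166 and 82.4 CPM in fed and 161, 148 and 125 CPM in fasted libraries. Groups overlapped in both, and the log2 difference of Pfkfb1 was 0.28 ± 0.32 in fresh IP (adjusted p = 0.402) and 0.20 ± 0.32 in frozen IP (adjusted p = 0.585).

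Pklr (chr3:89136142-89146594, plus strand) encodes the pyruvate kinase of liver and red cells, which share the gene but use separate start sites. RefSeq's promoter windows (GRCm38.p6, the mm10 build) run from 250 bases before to 50 bases after each start. Of the 2 windows of Pklr, the downstream one (chr3:89136373-89136672, plus strand), whose start lies 481 bases inside the deposited gene, holds a match to the carbohydrate response element, at -170 to -154 from that start. It is shown because Pklr and the gene of the factor that binds such elements fell in the same libraries. Capitals mark the match:
Pklr: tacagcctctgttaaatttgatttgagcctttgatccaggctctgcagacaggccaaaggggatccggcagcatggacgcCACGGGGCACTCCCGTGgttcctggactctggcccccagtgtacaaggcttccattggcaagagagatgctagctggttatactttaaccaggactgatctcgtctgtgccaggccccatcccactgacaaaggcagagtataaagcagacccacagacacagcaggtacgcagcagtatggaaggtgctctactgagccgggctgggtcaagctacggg
The letters searched on both strands were CACGNG and CNCGTG set 5 bases apart (N is any base), which were found in 15 of 32851 mouse promoter windows (0.0457%), and in none of the other windows of the 8 genes, the upstream one of Pklr included. Those 15 windows belong to 14 genes, of which 5 were tested in fresh IP. Among these 1 fell and 0 rose, where 12.6% of all genes tested fell and 12.4% rose. The 1 that fell is Pklr itself, whose fall was known when the motif was chosen. The count is therefore no result about the motif. A match is a description of the sequence and shows no binding.

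Pklr was at 163, 110 and 102 CPM in fed and 34.4, 57.0 and 21.2 CPM in fasted libraries of fresh IP. Frozen IP gave 162, 66.9 and 97.6 CPM in fed and 32.3, 54.6 and 22.3 CPM in fasted libraries. All fasted libraries lay below all fed ones, narrowly in frozen IP between fed B and fasted B. Pklr fell by 1.71 ± 0.46 on the log2 scale in fresh IP (adjusted p = 0.0119, edgeR) and by 1.58 ± 0.52 in frozen IP (adjusted p = 0.0246). The call was not kept in every run that left out a library, and such runs also called fewer of all genes. In fresh IP it was lost without fasted A at nearly the same estimate (-1.66, adjusted p = 0.0531, edgeR). In frozen IP it was lost without fed A (-1.18, adjusted p = 0.0631), fasted A (-1.50, adjusted p = 0.0907) or fasted C (-1.33, adjusted p = 0.0664). Hcn3 overlaps Pklr on the opposite strand over 521 bases and differed by -0.06 ± 0.24 in fresh IP (adjusted p = 0.926).

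Mlxipl (chr5:135106891-135138382, plus strand) has a second start, 17001 bases before the deposited one, from which the shorter and more active ChREBP-beta is made. The deposited gene does not reach it, so the counts do not cover the first exon of that form. The window at that start (chr5:135089640-135089939, plus strand) holds an E-box, CACGTG, at -98 to -93, shown because ChREBP is known to act on its own gene there. The E-box is in capitals:
Mlxipl: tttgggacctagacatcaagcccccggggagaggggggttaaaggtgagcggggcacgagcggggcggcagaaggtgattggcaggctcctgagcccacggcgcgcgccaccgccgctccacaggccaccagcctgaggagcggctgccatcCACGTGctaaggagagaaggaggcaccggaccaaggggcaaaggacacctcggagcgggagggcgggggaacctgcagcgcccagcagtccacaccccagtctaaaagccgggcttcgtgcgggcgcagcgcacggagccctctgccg
CACGTG reads the same on both strands and stood in 7.15% of all windows, so its presence is not rare. The window at the deposited Mlxipl start held neither an E-box nor a carbohydrate response element.

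The level of Mlxipl was 1799, 1535 and 1724 CPM in fed and 561, 616 and 608 CPM in fasted libraries of fresh IP. Frozen IP gave 1769, 1004 and 1520 CPM in fed and 477, 538 and 626 CPM in fasted libraries. Every fasted library lay below every fed one in both preparations, and within a group of fresh IP the libraries lay close together. The gap was narrower in frozen IP, between fed B at 1004 CPM and fasted C at 626 CPM. Mlxipl fell by 1.48 ± 0.08 on the log2 scale in fresh IP (adjusted p = 0.000963, edgeR; rank 60 by p of 12548 genes) and by 1.39 ± 0.27 in frozen IP (adjusted p = 0.00568). It passed without each library in turn, with adjusted p from 0.00164 to 0.00727 in fresh and from 0.00481 to 0.0316 in frozen IP. Frozen fed library B, the lowest of its group for Mlxipl and Pklr, was also the library with the fewest counts and had a summed Kupffer cell marker level of 91.1 CPM, beside 24.0 and 28.6 in the other fed libraries. Its part in these values was not tested. Whether it is the frozen fed library whose serial number lies outside the run is not given. Without frozen fed library B the log2 difference of Mlxipl in frozen IP was -1.59. Gm43500 overlaps Mlxipl on the opposite strand over 884 bases.

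Khk (chr5:30921559-30931248, plus strand) phosphorylates fructose, and Tkfc (chr19:10592197-10604258, minus strand) phosphorylates the glyceraldehyde that the cleavage of fructose 1-phosphate leaves. Both act in the same short route, and their estimates for fasting differed in sign. The Khk window (chr5:30921309-30921608, plus strand) holds an E-box in capitals at -71 to -66, beside an HNF1 motif, GTTAAT, at -60 to -55, and is shown as the only window at a deposited start of the 8 genes with the E-box:
Khk: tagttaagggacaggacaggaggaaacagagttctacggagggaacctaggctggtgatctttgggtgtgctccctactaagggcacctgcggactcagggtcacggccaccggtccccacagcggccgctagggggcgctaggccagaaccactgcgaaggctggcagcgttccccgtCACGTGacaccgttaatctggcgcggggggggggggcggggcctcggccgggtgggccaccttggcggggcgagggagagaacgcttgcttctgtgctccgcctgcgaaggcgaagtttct
GTTAAT was searched on both strands and stood in 7.1% of all windows. It was also found at -59 to -54 in Gckr and at -114 to -109 in Pfkfb1. CAAAGTCCA, an HNF4 motif present in 0.475% of windows, was found in none of the 8 genes, and the single Tkfc window held none of the 4 motifs searched.

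Khk was at 150, 155 and 73.0 CPM in fed and 64.3, 93.8 and 36.4 CPM in fasted libraries of fresh IP, and at 146, 96.2 and 75.4 CPM against 60.4, 84.8 and 33.7 CPM in frozen IP. Fed library C was low in both preparations and overlapped the fasted libraries. The log2 difference of Khk was -0.94 ± 0.53 in fresh IP (adjusted p = 0.106, edgeR) and -0.83 ± 0.48 in frozen IP (adjusted p = 0.121), and in fresh IP it passed with DESeq2 (adjusted p = 0.0302) and without fed library C (-1.22, adjusted p = 0.0405) or fasted library B (-1.30, adjusted p = 0.0477).

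Tkfc was at 145, 108 and 72.3 CPM in fed and 190, 284 and 143 CPM in fasted libraries of fresh IP, and at 149, 81.6 and 79.7 CPM against 204, 297 and 150 CPM in frozen IP. The highest fed library, A, lay just above the lowest fasted library, C, in fresh IP and just below it in frozen IP. The log2 difference of Tkfc was 0.95 ± 0.41 in fresh IP (adjusted p = 0.0551, edgeR), just above the threshold, and it rose by 1.06 ± 0.41 in frozen IP (adjusted p = 0.0433). The frozen call was lost without fed B (0.92, adjusted p = 0.125), fed C (0.89, adjusted p = 0.113), fasted A (1.10, adjusted p = 0.100) or fasted B (0.76, adjusted p = 0.126). In fresh IP Tkfc passed without fed A (1.204, adjusted p = 0.0477) or fasted C (1.14, adjusted p = 0.0404). It also passed there with DESeq2 (adjusted p = 0.0108), with one fit over all 6 groups (adjusted p = 0.0420) and with no filter on low counts (adjusted p = 0.0464). Cyb561a3, which overlaps Tkfc on the opposite strand over 3765 bases, fell by 0.47 ± 0.13 in fresh IP (adjusted p = 0.0435), where Tkfc did not pass, and was at -0.40 (adjusted p = 0.160) in frozen IP, where Tkfc did.

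The ratio of Tkfc to Khk counts within a library, chosen after the values were seen, took out much of the spread between mice. It was 0.967, 0.693 and 0.991 in fed and 2.96, 3.03 and 3.92 in fasted libraries of fresh IP. In frozen IP it was 1.02, 0.848 and 1.06 in fed and 3.38, 3.50 and 4.44 in fasted libraries. Every fasted library was far above every fed one, a log2 difference of 1.91 ± 0.21 (3.75-fold) in fresh and 1.95 ± 0.16 (3.86-fold) in frozen IP. Leaving out each library in turn gave 1.7 to 2.0 and 1.8 to 2.0. In supernatant it was 0.320, 0.433 and 0.384 in fed and 0.534, 0.584 and 0.585 in fasted libraries, a log2 difference of 0.59 ± 0.13 (1.51-fold). No test is given, since the ratio was picked for this difference and 3 against 3 libraries allow no exact p below 0.1.

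**Figure D2:**
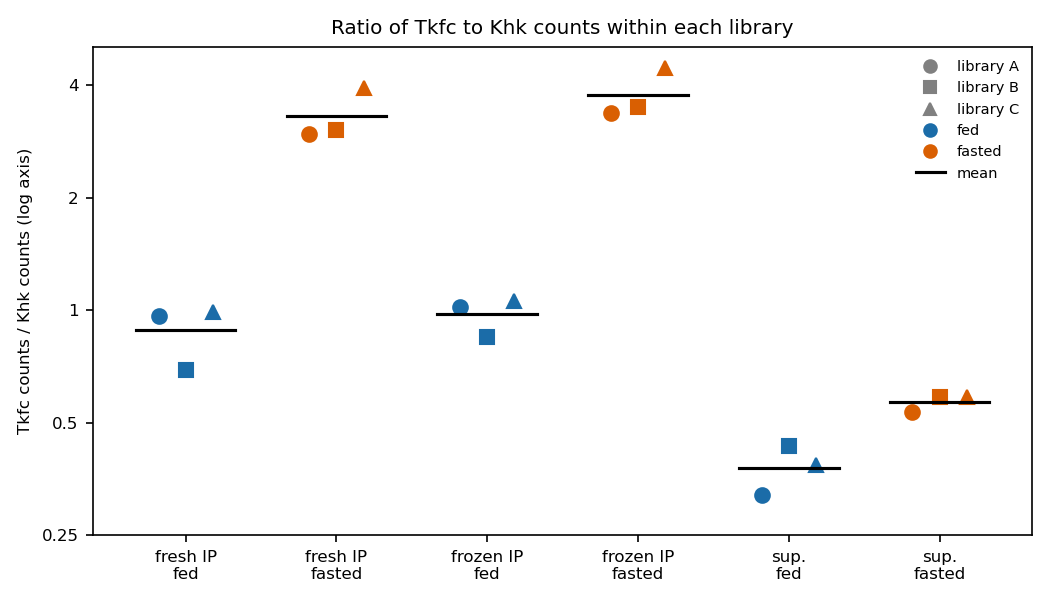
Ratio of Tkfc to Khk counts (log axis) in each of the 18 libraries, by group; symbols are libraries A, B and C, blue is fed, orange is fasted, bars are means of 3, and sup. is supernatant. Fed IP libraries lie between 0.693 and 1.06 and fasted IP libraries between 2.96 and 4.44, while supernatant libraries lie between 0.320 and 0.585.

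**Figure D3:**
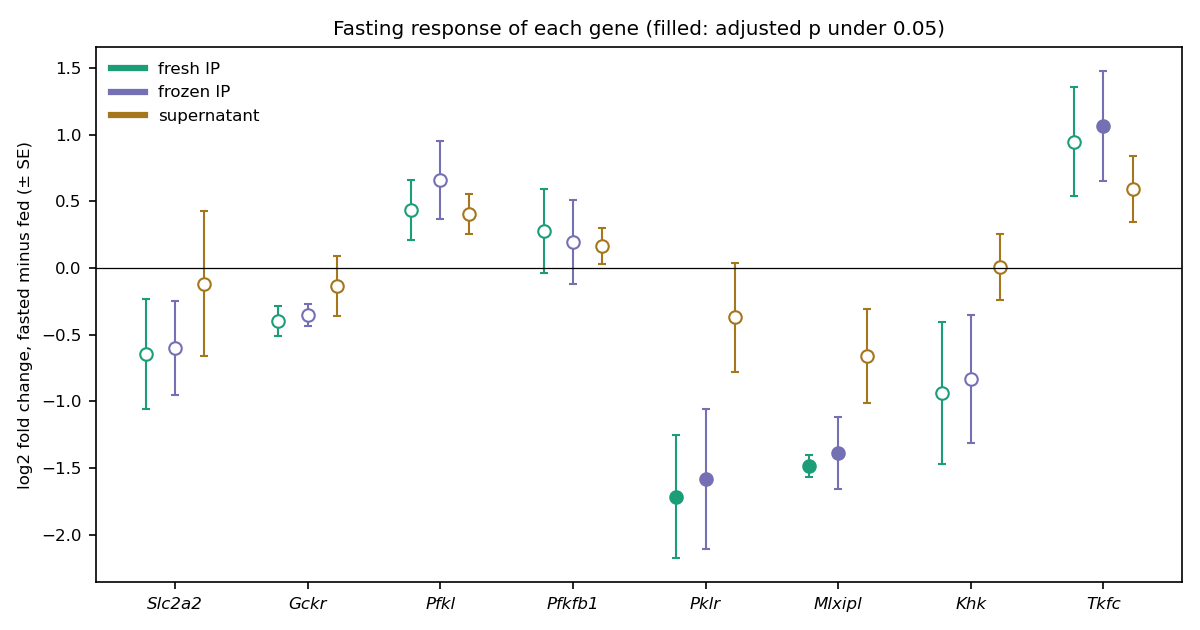
Log2 fold change, fasted minus fed, of each of the 8 genes in fresh IP, frozen IP and supernatant; points are edgeR estimates, bars are ± SE, and filled points have an adjusted p under 0.05. Mlxipl and Pklr are filled and negative in both IP preparations, Tkfc is filled in frozen IP at 1.06, and no supernatant point is filled.

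The authors' deposited table of comparisons gave the signs of the edgeR estimates for all 8 genes in both preparations. In the authors' deposited table Mlxipl was at -1.55 in fresh and -1.45 in frozen IP (adjusted p = 1.30e-09 and 1.79e-08) and Pklr at -1.78 and -1.64 (adjusted p = 0.000166 and 0.000588). For fresh IP the authors' deposited table also has Gckr (-0.46, adjusted p = 0.00940), Khk (-1.01, adjusted p = 0.0326) and Tkfc (0.88, adjusted p = 0.0296) under 0.05, but not Slc2a2 (adjusted p = 0.144), Pfkl (adjusted p = 0.224) or Pfkfb1 (adjusted p = 0.582). For frozen IP the authors' deposited table has Gckr (-0.42, adjusted p = 0.0199), Tkfc (0.9974, adjusted p = 0.0120) and Pfkl (0.59, adjusted p = 0.0325) under 0.05, but not Khk (-0.90, adjusted p = 0.0590).

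The comparison of IP with supernatant sets the tagged nuclei against those the beads left behind. Of the 8 genes, 7 were higher in IP and 0 were lower, where 85.1% of all 14322 genes differed, 42% higher and 43% lower (edgeR). Gckr differed most, by 5.74 ± 0.13 on the log2 scale, followed by Mlxipl (5.47 ± 0.18), Slc2a2 (5.25 ± 0.34), Pklr (4.34 ± 0.31), Tkfc (4.32 ± 0.24), Pfkfb1 (3.63 ± 0.17) and Khk (2.48 ± 0.29). The median of the 8 was 4.33 beside 0.00 over all genes. Pfkl was the exception, at -0.16 ± 0.13 (adjusted p = 0.240), with 11.7, 9.37 and 11.4 CPM in supernatant of fed and 15.6, 12.2 and 14.9 CPM in that of fasted mice, close to its IP levels.

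The supernatant level was 1.65% of the IP level in fed mice for Gckr, 1.63% for Mlxipl, 2.11% for Slc2a2, 2.998% for Pklr, 5.46% for Tkfc, 8.07% for Pfkfb1, 12.4% for Khk and 108% for Pfkl. The 10 hepatocyte markers lay at 2.28 to 13.6% (median 3.52%) in fed and 2.39 to 26.7% (median 5.58%) in fasted mice, so in fed mice 4 of the 8 genes lay within the range of the markers, 3 just below it, and Pfkl above it. The summed hepatocyte marker level in supernatant was 453 to 793 CPM in fed and 730 to 1222 CPM in fasted mice. Its part in the supernatant values was not tested.

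In supernatant 0 of the 8 genes passed the fasting test (edgeR), where 6.22% of 13921 genes did (3.38% higher and 2.84% lower), and 3 had an unadjusted p under 0.05 (DESeq2 also called 0). These 3 were Mlxipl, Tkfc and Pfkl, whose fed and fasted libraries did not overlap. Mlxipl was at 33.9, 23.8 and 24.7 CPM in fed and 20.3, 10.8 and 20.8 CPM in fasted supernatant, a log2 difference of -0.66 ± 0.35 (adjusted p = 0.175). Tkfc was at 5.94, 7.61 and 4.23 CPM in fed and 9.09, 8.63 and 8.93 CPM in fasted supernatant, a difference of 0.59 ± 0.24 (adjusted p = 0.120). Pfkl differed by 0.41 ± 0.15 (adjusted p = 0.131). All 3 had the sign they had in IP. The other 5 genes differed by -0.37 ± 0.41 (Pklr) to 0.17 ± 0.13 (Pfkfb1), with Khk at 0.01 ± 0.25. The test of the difference between the fasting response in IP and that in supernatant called 0 of the 8 genes, where 9.54% of 14322 genes were called (3.71% higher and 5.83% lower in IP), and 2 of the 8 had an unadjusted p under 0.05. Its estimates were -1.38 ± 0.62 for Pklr (adjusted p = 0.130), -0.88 ± 0.36 for Mlxipl (adjusted p = 0.0949) and -0.99 ± 0.59 for Khk (adjusted p = 0.230). With DESeq2, Mlxipl passed (-0.89, adjusted p = 0.0405). It also passed in edgeR without fasted supernatant B (-1.12, adjusted p = 0.0147), as did Pklr without fasted IP library B (-1.85, adjusted p = 0.0316).

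Between frozen and fresh liver the fitted levels of the 8 genes lay within 0.16 of each other on the log2 scale. None of the 8 passed the test of frozen against fresh IP (edgeR), where 5.16% of 13162 genes did (4.72% higher and 0.441% lower in frozen), and 0 of the 8 had an unadjusted p under 0.05 (DESeq2 also called 0). The estimates ran from -0.16 ± 0.36 (Khk) and -0.16 ± 0.14 (Mlxipl) to 0.03 ± 0.29 (Tkfc) on the log2 scale. In the same comparison, 7 of 8 endothelial and 6 of 7 Kupffer cell markers were higher in frozen than in fresh IP, and the summed endothelial level was 175 to 251 CPM in frozen and 60.6 to 122 CPM in fresh IP of fed mice. In the test of the fasting response in frozen against fresh IP, 0 of the 8 genes and 0% of 13162 genes passed (edgeR), and 43 genes (0.327%), none of them among the 8, had an unadjusted p under 0.05 (DESeq2 also called 0). The estimate of that difference farthest from 0 was that of Pfkl, 0.22 ± 0.37. Both tests take the fresh and the frozen library of a mouse as independent. A count of 0 is therefore no measure of how alike the preparations are.

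Libraries of the same letter in fresh and frozen IP lay close together for each gene. The median absolute log2 difference between same-letter libraries ran from 0.05 for Gckr to 0.19 for Mlxipl. The SD between mice of log2 CPM, averaged within letters, was 0.64 in fed mice for Slc2a2, 0.52 for Khk, 0.51 for Pfkfb1, 0.49 for Tkfc and 0.48 for Pklr, but 0.27 for Mlxipl, 0.14 for Pfkl and 0.11 for Gckr. In fasted mice it was 0.68 for Pklr and for Khk and 0.50 for Tkfc, but 0.39 for Pfkl, 0.18 for Pfkfb1, 0.15 for Slc2a2, 0.13 for Mlxipl and 0.12 for Gckr. This spread exceeded the median gap between preparations for every gene and feeding state except Mlxipl in fasted mice. For Slc2a2 and Pfkfb1 the fed spread came from library C, which lay below A and B in both preparations, whereas Pklr, Khk and Tkfc were uneven in both feeding states. The largest gaps between preparations, 0.72 for Pklr, 0.69 for Khk and 0.61 for Mlxipl, were all in fed library B, whose frozen preparation had the fewest counts.

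**Figure D4:**
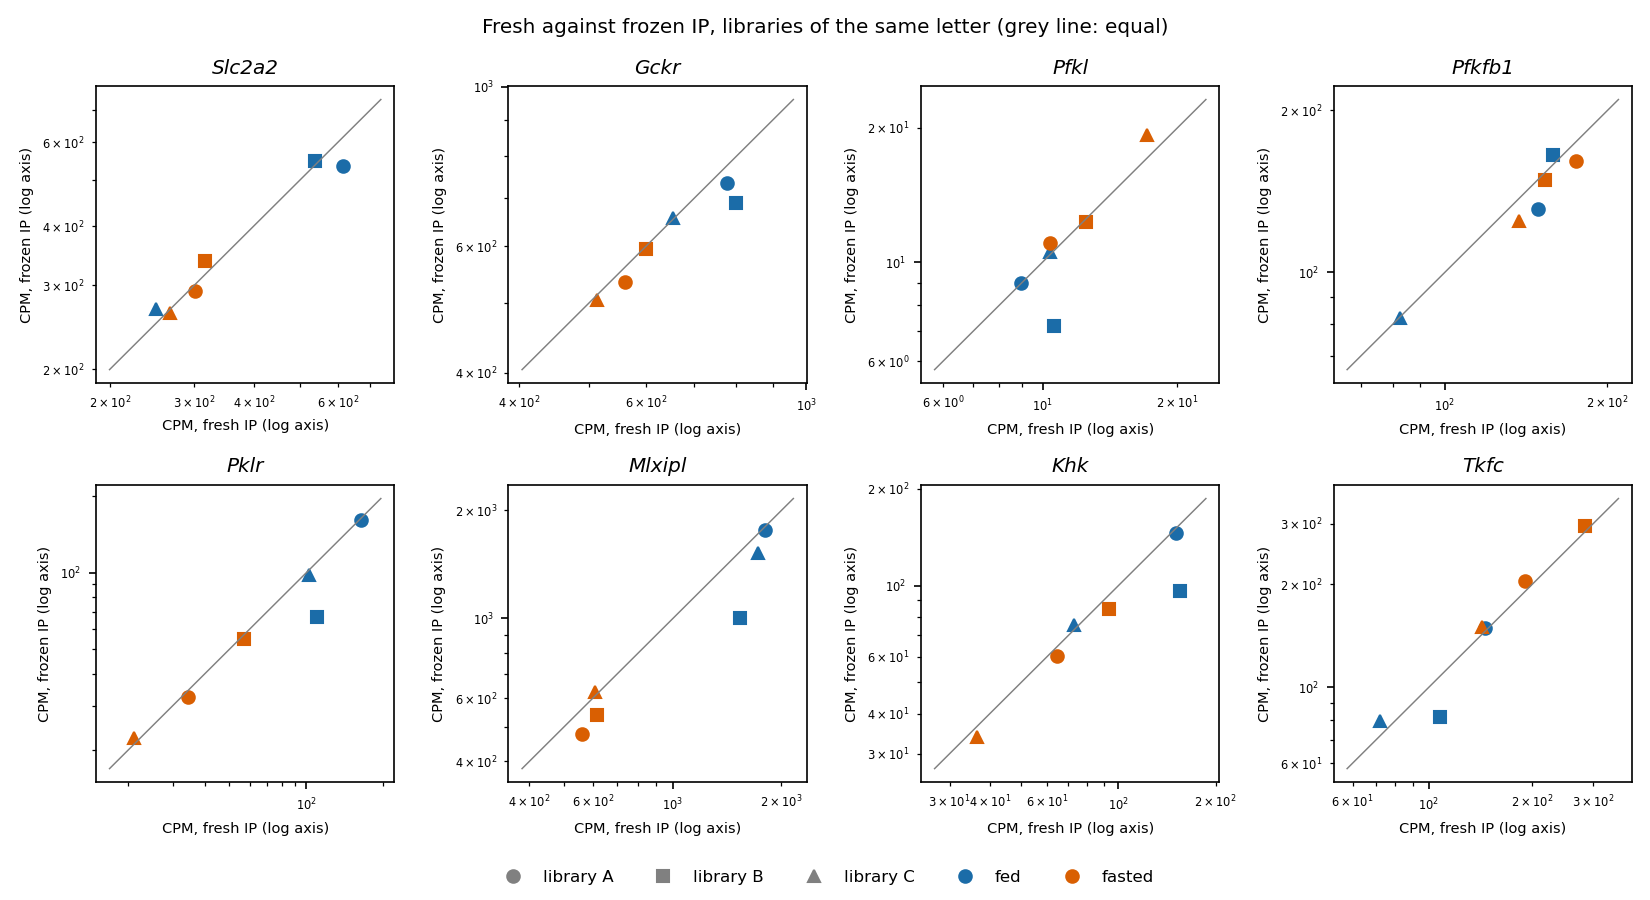
Level of each gene in frozen IP against fresh IP (CPM, log axes) for libraries of the same letter and feeding state; blue is fed, orange is fasted, and the grey line marks equal levels. Points lie along the line, with fed library B below it for Pklr, Khk, Mlxipl, Pfkl, Tkfc and Gckr.

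Across the 12 IP libraries, which come from 6 mice with a fresh and a frozen library each, some of the 8 genes varied together. Khk and Tkfc had a Pearson r of -0.08 over the 12 libraries, but 0.94 once each library was taken as its deviation from its group mean. Within a feeding state, then, mice high in Khk were high in Tkfc, although the group means differed in opposite directions. This was not particular to that pair. For deviations Tkfc also had 0.93 with Pklr and 0.90 with Gckr, but 0.24 with Mlxipl and -0.46 with Pfkl. Over the libraries and for deviations, Slc2a2 and Pfkfb1 had 0.46 and 0.93, and Gckr and Khk 0.93 and 0.97. Pklr and Mlxipl had 0.88 over the libraries and 0.39 for deviations, a lower value once the difference between feeding states was taken out.

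Of 12464 genes tested in both preparations, those most like Mlxipl over the 12 libraries by Pearson r of log2 CPM were Sema4g (0.995), Cyb5r3 (0.989) and Cchcr1 (0.988). Those most like Pklr were Cyp2d40 (0.987), Nek3 (0.977) and Zfp78 (0.974). Gckr was nearest to Tecr (0.987), Aagab (0.985) and Fasn (0.985), the fatty acid synthase gene. Tkfc was nearest to Mttp (0.966), which loads lipid onto lipoproteins, to Gpd1 (0.966), and to Slc25a42 (0.955). Slc2a2 was nearest to Hsd11b1 (0.985), which regenerates active glucocorticoid, Arrdc4 (0.982) and Herc6 (0.972). Khk was nearest to Fam198a (0.972), with Fam214a at 0.965. Pfkfb1 was nearest to the clock gene Cry1 (0.974), Stt3b (0.969) and Gldc (0.959), and Pfkl to the lamin gene Lmna (0.947), Rcc2 (0.946) and Lman2l (0.944). These values describe the libraries and rest on 6 mice.

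Around the 8 genes, the other enzymes of the pathway moved in both directions in fresh IP, read against 12.4% of all genes rising, 12.6% falling and a median log2 difference of 0.01. Of 20 related isoforms 16 were tested, 1 rose and 2 fell (median 0.03). Pfkfb2, the heart-type relative of Pfkfb1, rose by 1.59 ± 0.20 (adjusted p = 0.00157, edgeR), from 99.1, 86.2 and 96.9 CPM in fed to 345, 219 and 275 CPM in fasted libraries, while Pfkfb1 was at 0.28 ± 0.32. The fructose transporter Slc2a5 fell by 1.98 ± 0.45 (adjusted p = 0.00965) from a low level, 4.62, 5.15 and 2.16 CPM in fed to 0.935, 1.26 and 0.724 CPM in fasted libraries. The urate transporter Slc2a9 fell by 0.53 ± 0.15 (adjusted p = 0.0369). Without fed C or fasted B, 2 of these relatives rose, and without fed A, fasted A or fasted C, 1 fell. Leaving out any library of fresh IP lowered the number of all genes passing, with the range given at the end. Counts from such runs, here and below, are therefore no result about a list.

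Of 16 other glycolysis enzymes 15 were tested, 7 rose and 1 fell (median 0.59). Ldha, the lactate dehydrogenase subunit, rose by 1.45 ± 0.22, from 50.1, 49.7 and 34.2 CPM in fed to 102, 140 and 118 CPM in fasted libraries, and the aldolase Aldoa rose by 1.09 ± 0.08. Aldoc, the brain aldolase, fell by 3.14 ± 0.55 but was at 0.352 to 0.836 CPM in fed and 0 to 0.0970 CPM in fasted libraries. Without fasted library A, 4 rose and 0 fell. In frozen IP 7 of 14 rose and 0 fell. The enzymes that rose moved opposite to Pklr.

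Of 9 other genes of fructose and polyol use 8 were tested, 2 rose and 3 fell (median 0.08). Adh1, the alcohol dehydrogenase, fell by 1.49 ± 0.17 and Sord, which turns sorbitol into fructose, fell by 1.38 ± 0.26, from 730, 627 and 763 CPM in fed to 184, 300.2 and 319 CPM in fasted libraries. Gpd1, the glycerol 3-phosphate dehydrogenase, rose by 1.28 ± 0.36. Of 8 pentose phosphate genes 1 rose and 2 fell (median -0.25), with the transketolase Tkt falling by 1.16 ± 0.27, Pgd by 0.99 ± 0.36, and Rpe rising by 0.44 ± 0.07. Of 15 genes of pyruvate fate 3 rose and 2 fell (median -0.18). Pdk4, a kinase that shuts pyruvate dehydrogenase, rose by 2.44 ± 0.48, while its relative Pdk1 fell by 1.56 ± 0.46 and Dlat, a subunit of the complex, fell by 0.72 ± 0.15. Of 7 genes of glucose output 0 rose and 1 fell, the alanine aminotransferase Gpt (-0.67 ± 0.20), with a median of 0.50. That count of 1 held in none of the 6 runs that left out a library, being 2 without fed C and 0 without each of the others. Of the pentose phosphate genes 0 rose without fed B, fed C, fasted A or fasted B, and 1 fell without fed A, fed B, fasted A or fasted C. Of the pyruvate genes 1 rose without fed B or fasted A, and 1 fell without fed A or fasted A but 4 without fed C. All of these runs called fewer genes over all genes tested. Without fed C the numbers falling in glucose output and pyruvate fate nevertheless went up. Whether the shifts are particular to these lists was not tested.

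Of 20 known targets of ChREBP 5 rose and 9 fell in fresh IP (median -0.94), and the counts in frozen IP were also 5 and 9. Pnpla3, a lipid droplet protein, fell by 6.94 ± 1.03 and Thrsp, which promotes fat synthesis, by 6.20 ± 0.98. Fgf21, the fasting hormone, rose by 5.03 ± 0.58. The targets thus moved in both directions, with 3 rising without fed B, fasted A or fasted B. Tkt, Gpd1, G6pc and Me1 stand in this list as well as in those above, and many of the targets also answer to other factors. Of 23 regulators 4 rose and 4 fell (median -0.05). Insig1, which holds the escort protein of SREBP in the endoplasmic reticulum, fell by 3.87 ± 0.67, Srebf1, the insulin-responsive regulator of lipid synthesis, fell by 3.31 ± 0.37, and the insulin-restrained factor Foxo1 rose by 1.41 ± 0.30. Without fasted A 1 regulator rose, and without fed B or fed C 2 did. In supernatant 0 of the targets fell and 3 rose, and of the regulators 3 rose and 1 fell, read against the shares over all genes given above.

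**Figure D5:**
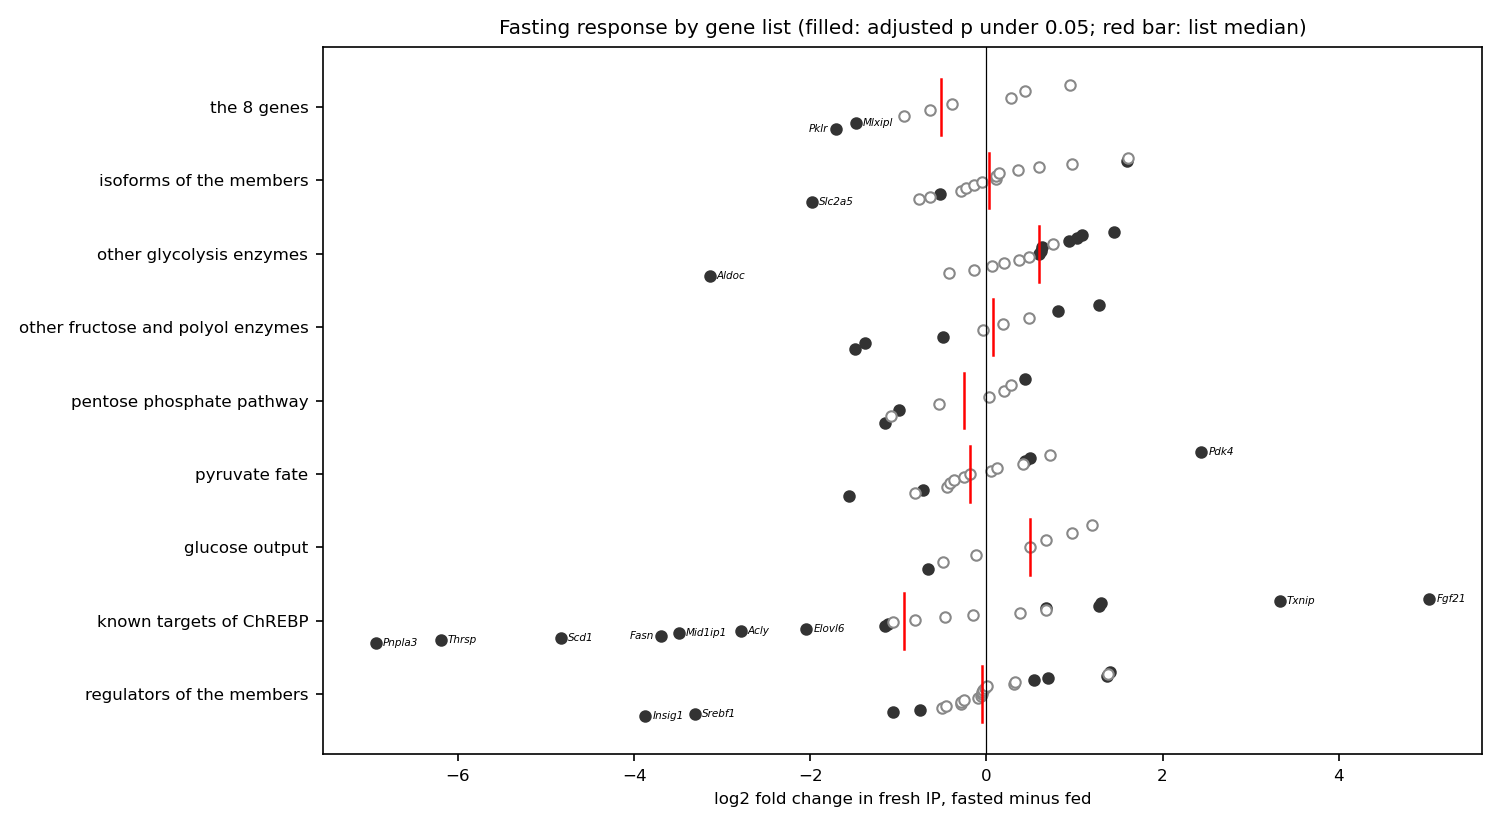
Log2 fold change in fresh IP, fasted minus fed, of each gene tested, by list; filled points have an adjusted p under 0.05 (edgeR), red bars are list medians, and filled points beyond 1.9 are named, as are those of the 8 genes. The 8 genes lie between -1.71 and 0.95 with a median of -0.52, while the targets of ChREBP reach from -6.94 to 5.03.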

How the data were processed

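Nuclear RNA was sequenced from 18 libraries of 6 mice. Per the labels' protocols, a stranded kit without poly-A selection was used on 50 to 100 ng RNA, with 50 bp paired reads, so unspliced RNA is part of the signal. The submitters' processing notes name STAR 2.4.2a, the build mm10 and DESeq2 1.24.0. The counting tool and its strand setting are not given in the sources used here. The authors deposited raw counts per gene for 20105 genes. A further 6 value columns of that table match no sample and were not used. The authors also deposited a comparison table with log2 fold changes, p-values and normalized signal, which was used only where named. Gene positions and lengths, of unit other, are as the authors deposited them.

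Columns were assigned to groups by name. Replicates are separate mice, by the animal numbers in the labels. Whether column letters pair libraries of 1 mouse was checked on deviations from group means over 8478 genes. The correlation was 0.555 to 0.902 for fresh IP with frozen IP of the same letter, 0.152 to 0.478 for IP with supernatant, and -0.586 to 0.010 for different letters, so a paired alternative used the letter as block. No 2 libraries of the same group matched within sampling noise (chi-square per gene 16.7 or more).

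Each comparison was tested on its own groups with edgeR 4.0.16 in R 4.3.3 (TMM, filterByExpr, quasi-likelihood test) and Benjamini-Hochberg adjusted p under 0.05 over all genes tested. SEs belong to differences of mean log2 CPM between groups (prior count 2) and take libraries as independent, also in comparisons that share mice. CPM were TMM-scaled over all 18 libraries and are given per library or as mean ± SD. The alternatives were RLE scaling, DESeq2 1.42.0, no filter on low counts, one fit over all 6 groups, the replicate block and leaving out each library. The test was checked on simulated counts with the same dispersion for every gene and independent libraries. That setting is simpler than these data, so the check does not cover libraries that share mice. The 8 genes, the gene lists and the motifs were chosen with earlier results of these data known. Named from each list are at most the 3 genes with the largest absolute log2 fold change among those passing in fresh IP. The genes most alike are from the 3 with the highest Pearson r. Some genes that these rules name are not reported here. Promoter sequences are RefSeq's.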

Additional observations from a re-analysis of the deposited data

How the results depend on the processing

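The direction of Mlxipl, Pklr, Tkfc, Gckr, Khk, Slc2a2 and Pfkl in both IP preparations was the same under every alternative run. Of the 8 genes, 2 passed for fasting in fresh IP, 5 with DESeq2, 4 with one fit over all 6 groups and 1 to 5 when each library was left out. In frozen IP 3 passed, 4 with DESeq2 or with one fit over all 6 groups, and 1 to 3 when each library was left out. For DESeq2 and the one fit, the share of all genes passing in IP is not given here. These counts of the 8 genes are therefore no result about the set. With a library left out, genes passing ran from 1429 to 2643 in fresh (3145 with all libraries), 1168 to 2271 in frozen (2918) and 197 to 624 in supernatant (866, and 1881 with DESeq2). For the fasting response in IP against supernatant, 1367 genes passed, 2340 with DESeq2 and 771 to 1485 with a library left out, and of the 8 genes 0, 1 and 0 to 1. For frozen minus fresh IP 679 genes passed, 2173 with the replicate block that pairs libraries of a mouse and 409 to 711 with a library left out, and none of the 8 in any of these. The replicate block changed no call on the 8 genes. Signs that changed when a library was left out were those of values that did not pass: Pfkfb1 in frozen IP (-0.045 to 0.44), Slc2a2 (-0.44 to 0.11) and Khk (-0.18 to 0.14) in supernatant, Khk in frozen minus fresh IP (-0.33 to 0.017) and Pfkl in the frozen minus fresh fasting response (-0.056 to 0.44). The cause of these shifts was not tested. With 3 mice a group, differences such as that of Khk in fresh IP (-0.94 ± 0.53, SE) were not resolved.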
